A study of Homo sapiens with 5 samples.

Results

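The genes described here encode the machinery that brings proteins into mitochondria, chosen as every gene symbol beginning with TIMM (15 genes) or TOMM (10 genes) plus 11 named partners: SAMM50, MTX1, MTX2, PMPCA, PMPCB, GRPEL1, GRPEL2, PAM16, CHCHD4, GFER and OXA1L. The rule uses symbols only and gave 36 of the 26485 genes counted. Of these, 35 passed the filter on low counts. MTX1, a metaxin gene, was left out of the tests with 5, 8 and 6 reads in the knockdown libraries and 0 and 1 reads in the controls. The cells were SW480, an established human colorectal cancer line, carrying dCas9-KRAB, a Cas9 without nuclease activity fused to a repressor domain that blocks transcription where a guide RNA directs it. Knockdown cells had received an sgAKAP12 guide (3 libraries) and control cells sgControls (2 libraries), and RNA was taken 48 hours after seeding in both. The sample titles write shAKAP12 and shControl for these groups, so the labels name both silencing methods, and the treatment protocol is followed here. How many guides were used, and whether the cells were 1 clone, was not given in the sources used here. RNA was read from the 3' end of polyadenylated transcripts (QuantSeq FWD) and counted per gene. In such bulk RNA, fewer cells with a transcript and less of it per cell cannot be told apart.

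Nearly all mitochondrial proteins are made in the cytosol and imported. The TOM complex of the outer membrane receives them, small TIM chaperones guide hydrophobic precursors across the intermembrane space, and the TIM22 and TIM23 complexes insert or translocate them at the inner membrane. An ATP-driven motor (PAM) pulls matrix proteins in, a peptidase removes their targeting sequence, SAM assembles outer membrane barrels, the MIA pathway folds cysteine-rich proteins in the intermembrane space, and OXA1L inserts proteins into the inner membrane from the matrix side. Promoters of many nuclear genes for mitochondrial proteins hold sites for the activator NRF1 and for ETS-family factors such as GABPA.

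Those letters were looked for in the RefSeq promoter windows (GRCh38.p14, 250 bases before to 50 after the start), which were present for 33 of the 36 genes. The 5 printed here belong to genes that passed the test below and hold such a match, TOMM20, MTX2, TIMM23 and GRPEL2 from those that rose and TIMM13 from those that fell. Capitals mark the NRF1-type letters (GCGCA, any base, then GCGC) and the ETS-type letters CCGGAAG, on either strand.
TOMM20 (chr1:235128788-235129087, minus strand): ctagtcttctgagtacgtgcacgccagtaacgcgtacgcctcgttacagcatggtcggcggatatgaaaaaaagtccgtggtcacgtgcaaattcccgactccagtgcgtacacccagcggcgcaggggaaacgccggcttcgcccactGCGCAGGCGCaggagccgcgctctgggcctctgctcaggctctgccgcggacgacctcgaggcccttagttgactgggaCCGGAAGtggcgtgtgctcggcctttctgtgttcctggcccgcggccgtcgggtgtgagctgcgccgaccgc
MTX2 (chr2:176269192-176269491, plus strand): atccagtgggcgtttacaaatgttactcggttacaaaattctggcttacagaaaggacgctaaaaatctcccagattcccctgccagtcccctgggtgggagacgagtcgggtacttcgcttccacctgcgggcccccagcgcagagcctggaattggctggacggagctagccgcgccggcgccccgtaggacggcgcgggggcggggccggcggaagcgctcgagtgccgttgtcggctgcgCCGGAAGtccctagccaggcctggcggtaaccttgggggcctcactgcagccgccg
TIMM23 (chr10:45972239-45972538, plus strand): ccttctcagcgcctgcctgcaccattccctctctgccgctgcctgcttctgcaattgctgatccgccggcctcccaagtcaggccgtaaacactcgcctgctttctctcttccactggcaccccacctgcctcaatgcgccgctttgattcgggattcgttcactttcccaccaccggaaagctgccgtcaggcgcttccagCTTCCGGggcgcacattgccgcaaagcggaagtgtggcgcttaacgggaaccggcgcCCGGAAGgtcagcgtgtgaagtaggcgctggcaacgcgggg
GRPEL2 (chr5:149345249-149345548, plus strand): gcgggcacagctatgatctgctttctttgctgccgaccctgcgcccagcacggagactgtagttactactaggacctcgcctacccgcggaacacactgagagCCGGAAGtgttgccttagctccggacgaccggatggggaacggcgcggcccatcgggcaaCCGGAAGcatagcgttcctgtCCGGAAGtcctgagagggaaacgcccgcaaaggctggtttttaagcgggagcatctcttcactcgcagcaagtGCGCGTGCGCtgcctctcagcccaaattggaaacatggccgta
TIMM13 (chr19:2427537-2427836, minus strand): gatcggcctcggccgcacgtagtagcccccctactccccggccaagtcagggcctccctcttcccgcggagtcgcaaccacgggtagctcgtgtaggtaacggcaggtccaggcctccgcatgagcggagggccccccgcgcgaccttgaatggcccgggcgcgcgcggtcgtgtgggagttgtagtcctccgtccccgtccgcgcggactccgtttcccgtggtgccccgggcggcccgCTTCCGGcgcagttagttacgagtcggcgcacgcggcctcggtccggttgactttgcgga
The ETS-type letters occurred in 15 of 33 import gene promoters (45.5%), against 10.7% of 27305 promoters of all genes and 14.2% of 15843 protein-coding ones. The NRF1-type letters occurred in 8 of 33 (24.2%), against 6.28% of all and 8.58% of protein-coding promoters. Matches to the YY1-type letters AAGATGGC were in 3 of 33 (9.09%), against 3.03% of all promoters, and to the E-box CACGTG in 3 of 33 (9.09%), against 7.43%. Every motif was searched on both strands, and matches to different motifs were counted separately. GRPEL2 held 3 ETS-type matches and 1 NRF1-type match, and TOMM20 held 1 of each. These are matches of letters, and no binding was measured.

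Libraries held 9311026, 6890868 and 7763190 reads in the knockdown and 4935096 and 8670141 in the controls. The targeted gene AKAP12 was at 1159, 1063 and 1008 CPM (CPM are counts scaled to library size with TMM factors) in the knockdown, against 2870 and 1550 CPM in the controls. All knockdown libraries were below both controls, but the difference missed the threshold of 0.05 (log2 fold change -1.04, SE 0.31, edgeR adjusted p = 0.0513). The controls differed from each other far more than the knockdown libraries did, with a chi-square per degree of freedom over genes of 5.55 to 9.29 between knockdown libraries and 114.1 between controls. Control 1 lay farther from the knockdown libraries (199 to 236) than control 2 did (74.8 to 98.1). TERT took 0.0451% to 0.249% of knockdown counts, against 7.43% and 3.54% of control counts, and short RNA genes 0.642% to 0.929%, against 8.64% and 1.73%. With TERT and short RNA genes removed before the fit, edgeR called 8 import genes higher and 4 lower, with a median log2 fold change of 0.54. With them kept it called 8 higher and 4 lower, with a median of 0.55. Any other part of theirs in the results was not tested. As the controls differed, results are given against each control as well. The 10 colon epithelial markers summed to 1399 to 1655 CPM in the knockdown and 1041 to 1578 CPM in the controls, mostly from keratin genes, while the colon epithelial markers VIL1, ELF3 and LGALS4 were under 5 CPM in all libraries. The 6 stromal markers were all detected, summing to 411.8 to 485.5 CPM in the knockdown and 327.8 to 423.3 CPM in the controls, and the 8 blood and endothelial markers summed to 120.6 to 150.9 CPM in the knockdown and 101.9 to 167.2 CPM in the controls, with CD3D and CD3E under 5 CPM in all libraries. The part of these markers was not tested.

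Import genes passed the test in both directions, those that fell at the share of all tested genes (11.4%). The 10 TOM genes, which include the cytosolic TOMM34, all had positive fold changes with both controls, under every scaling tried. Over all tested genes, 7489 of 14536 had a positive fold change. Against control 2 alone 9 of the 10 TOM genes were positive, and control 1 was the lowest library for all 10. Of the 10 TOM genes 3 rose, against 11.2% of all tested genes. MTX2, GRPEL2, TIMM23, TIMM9 and PMPCB also rose. GRPEL1, TIMM13, GFER and TIMM17B fell. In all, 8 of 35 tested genes rose (22.9%, against 11.2% of all tested genes), and 4 fell (11.4%, against 11.4%). Together 34.3% passed the edgeR test, against 22.6% of all tested genes. The median log2 fold change was 0.55, against 0.04 over all tested genes. Levels of knockdown and control libraries did not overlap for 26 of the 35 genes (74.3%), against 60.1% of all tested genes. They were higher for 18 and lower for 8, against 31.6% and 28.5% of all tested genes. Import genes took 0.400%, 0.390% and 0.398% of all knockdown counts, against 0.265% and 0.336% of control counts. With TERT and short RNA genes left out of the totals these shares were 0.403%, 0.394% and 0.401%, against 0.316% and 0.354%. The TIMM symbols alone summed to 1189, 1078 and 1125 CPM in the knockdown, against 1499 and 1364 CPM in the controls. The TOMM symbols summed to 1787, 1743 and 1799 CPM, against 435.3 and 1174 CPM. DESeq2 called 11 import genes higher and 6 lower, against 15.6% and 16.3% of all genes, and limma-voom 10 and 4, against 11.4% and 9.76%. With any 1 of the 3 knockdown libraries left out, edgeR called 0 import genes and 0 genes of all tested. In those fits 14 to 16 import genes had an unadjusted edgeR p under 0.05, against 19 of 35 with all libraries. Over all genes these counts were 3774 to 4109, of 14215 to 14324 tested, against 5890 of 14536.

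**Figure D1:**
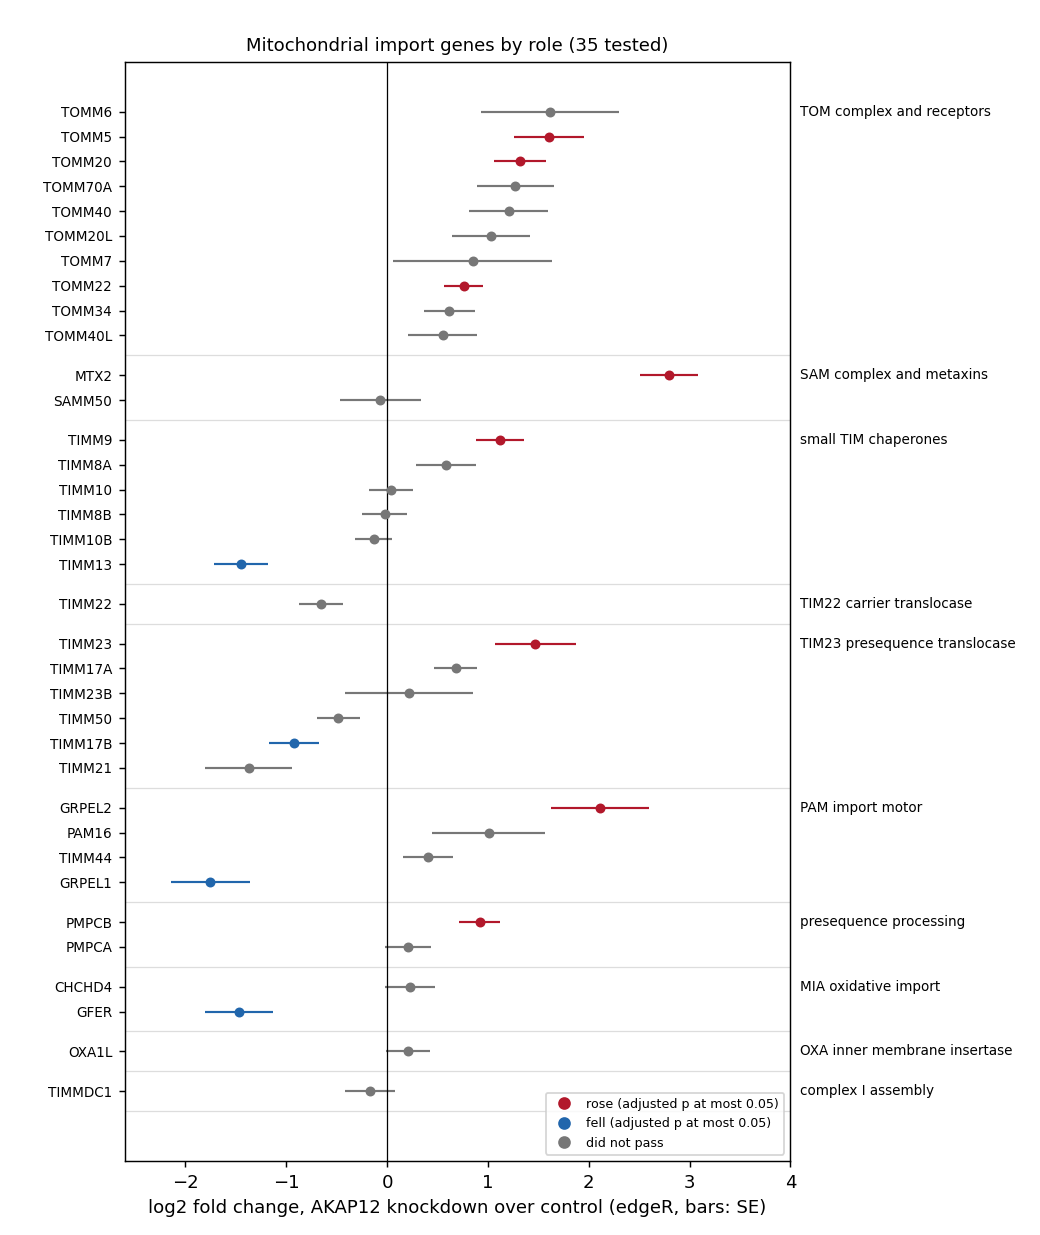
Log2 fold change of each tested import gene (AKAP12 knockdown over control, edgeR, bars are SE) grouped by role, with red for genes that rose, blue for genes that fell and grey for the rest. All 10 TOM genes lie above 0, while the inner membrane and intermembrane space groups hold members on both sides.

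The TOM complex is the entry gate of the outer membrane. TOMM20 and TOMM70 (listed as TOMM70A) are its receptors for targeting sequences, TOMM22 is the central receptor that organises it, TOMM40 forms the channel, and TOMM5, TOMM6 and TOMM7 are small subunits. TOMM20 (chromosome 1, 235109343 to 235128941, hg38, minus strand) was at 81.8, 81.0 and 101.1 CPM in the knockdown, against 27.9 and 42.2 CPM in the controls. It rose 2.49-fold (log2 fold change 1.32, SE 0.26, edgeR adjusted p = 0.0219). TOMM5 (chromosome 9, 37588415 to 37592639) reached 486.5, 483.4 and 523.5 CPM, against 103.9 and 222.7 CPM in the controls, and rose 3.04-fold (log2 fold change 1.61, SE 0.35, edgeR adjusted p = 0.0254). For TOMM22 (chromosome 22, 38681949 to 38684761) the values were 124.0, 146.9 and 135.9 CPM in the knockdown and 78.1 and 82.0 CPM in the controls, a smaller rise of 1.69-fold (log2 fold change 0.76, SE 0.19, edgeR adjusted p = 0.0352). Each of these genes was higher in all 3 knockdown libraries than in both controls, and the controls lay close together only for TOMM22.

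The channel gene TOMM40 had 132.3, 136.5 and 165.4 CPM in the knockdown, against 35.3 and 89.3 CPM in the controls, and missed the threshold (log2 fold change 1.21, SE 0.39, edgeR adjusted p = 0.0648). The receptor gene TOMM70A had 73.8, 66.2 and 63.2 CPM, against 15.7 and 39.6 CPM (log2 fold change 1.27, edgeR adjusted p = 0.0537). TOMM70A missed it too, and neither gene's groups overlapped. Both passed by DESeq2 and by limma-voom. TOMM6 had 239.7, 212.3 and 225.7 CPM in the knockdown and 18.9 and 126.8 CPM in the controls (log2 fold change 1.62, SE 0.68, edgeR adjusted p = 0.123), and passed by DESeq2 only.

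TOMM7 had 417, 369 and 336 CPM in the knockdown, against 37.5 and 376.3 CPM in the controls. It is the one TOM gene whose groups overlapped: control 2 lay within the knockdown range and control 1 far below it. The pooled difference (log2 fold change 0.85, SE 0.79, edgeR adjusted p = 0.450) became -0.0061 against control 2 and 3.32 against control 1. TOMM34, a cytosolic co-chaperone of precursors (log2 fold change 0.62), and the paralogs TOMM40L (0.55) and TOMM20L (1.03) did not pass, with edgeR adjusted p values of 0.118, 0.268 and 0.0949. TOMM20L overlaps TIMM9 on the opposite strand, so its reads and those of TIMM9 cannot be told apart where they share bases. Summed over all 10 TOM genes, the level was 1787, 1743 and 1799 CPM in the knockdown and 435.3 and 1174 CPM in the controls.

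**Figure D2:**
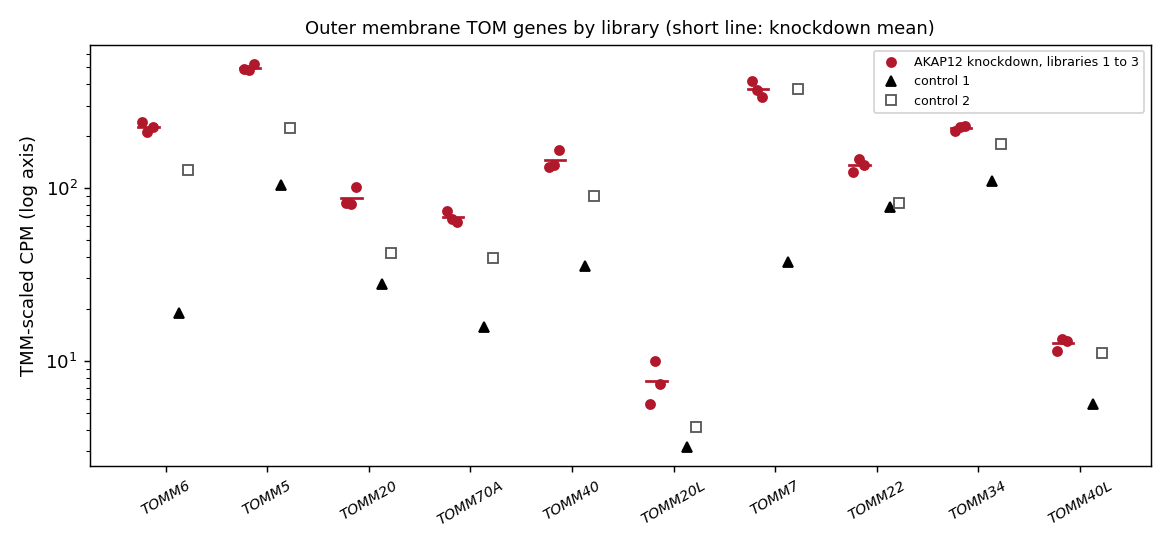
TMM-scaled CPM (log axis) of the 10 TOM genes in each library, with knockdown libraries as red circles and their mean as a line, control 1 as triangles and control 2 as open squares. Control 1 is the lowest library for all 10 genes, and for TOMM7 control 2 sits among the knockdown libraries.

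Barrel-shaped outer membrane proteins are assembled by SAM, whose core SAMM50 works with the metaxins MTX1 and MTX2. MTX2 (chromosome 2, 176269395 to 176338025) had the largest fold change of the 35 tested genes. Its level was 30.5, 29.2 and 41.2 CPM in the knockdown, against 5.14 and 4.59 CPM in the controls, from 298, 218 and 335 reads and from 21 and 40 reads. The rise was 6.94-fold (log2 fold change 2.80, SE 0.29, edgeR adjusted p = 0.0126). The controls were close to each other, and the log2 fold change was 2.87 against control 2 and 2.699 against control 1. SAMM50 had 68.3, 68.3 and 64.7 CPM in the knockdown, between 36.0 CPM in control 1 and 103.5 CPM in control 2, and did not pass (log2 fold change -0.07, SE 0.40, edgeR adjusted p = 0.919).

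The small TIM proteins form ring-shaped chaperones, with TIMM9 paired with TIMM10 and TIMM8A with TIMM13. TIMM9 (chromosome 14, 58408494 to 58427614) was at 34.0, 42.6 and 46.4 CPM in the knockdown and 17.6 and 19.8 CPM in the controls, and rose 2.18-fold (log2 fold change 1.12, SE 0.24, edgeR adjusted p = 0.0246). Its partner gene TIMM10 was at 60.9, 46.3 and 44.8 CPM, against 49.5 and 49.3 CPM in the controls (log2 fold change 0.04, edgeR adjusted p = 0.915). TIMM13 (chromosome 19, 2425624 to 2427916) was at 173.9, 176.1 and 150.2 CPM in the knockdown, against 574.4 and 332.9 CPM in the controls. It fell, 2.72-fold lower in the knockdown (log2 fold change -1.44, SE 0.27, edgeR adjusted p = 0.0206). TIMM8A did not pass (log2 fold change 0.59, edgeR adjusted p = 0.185), so the genes of each pair had different fold changes, a difference that was not tested.

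TIMM8B and TIMM10B had log2 fold changes of -0.02 and -0.13 with SEs of 0.22 and 0.18, and edgeR adjusted p values of 0.947 and 0.616. TIMM10B spanned 49.2 to 53.2 CPM in the knockdown and 56.6 to 56.7 CPM in the controls. TIMM8B shares exon bases with C11orf57 on the opposite strand, which itself rose (log2 fold change 0.74, edgeR adjusted p = 0.0395).

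TIMM22, the channel that inserts metabolite carriers into the inner membrane, was at 35.01, 26.1 and 33.9 CPM in the knockdown, against 51.4 and 48.4 CPM in the controls. The groups did not overlap, but the difference missed the threshold (log2 fold change -0.65, SE 0.22, edgeR adjusted p = 0.0702). It passed by DESeq2 only. The annotation places TIMM22, PAM16 and MTX1 on more than 1 reference sequence each, so reads that match several of these copies may be missing from their counts.

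TIM23 is the route for proteins with a targeting presequence. TIMM23 forms it with TIMM17A or TIMM17B, and TIMM50 and TIMM21 hand over precursors and link it to partner complexes. TIMM23 (chromosome 10, 45972453 to 46003741) had 74.0, 75.4 and 90.7 CPM in the knockdown, against 15.7 and 41.3 CPM in the controls, and rose 2.77-fold (log2 fold change 1.47, SE 0.40, edgeR adjusted p = 0.0424). Its near copy TIMM23B had 22, 6 and 10 reads in the knockdown and 5 and 11 in the controls, and the split of reads between these copies is uncertain. With library size only, TIMM23 missed the threshold (edgeR adjusted p = 0.0596).

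TIMM17A and TIMM17B, alternative subunits of the same translocase, had fold changes of opposite sign. TIMM17B (chromosome X, 48893447 to 48898143) was at 42.7, 46.3 and 51.4 CPM in the knockdown and 109.5 and 68.2 CPM in the controls, and fell 1.89-fold (log2 fold change -0.92, SE 0.25, edgeR adjusted p = 0.0420). TIMM17A (chromosome 1, 201955491 to 201970661) was at 104.8, 96.6 and 118.9 CPM in the knockdown and 74.5 and 59.0 CPM in the controls, which missed the threshold (log2 fold change 0.68, SE 0.21, edgeR adjusted p = 0.0595). TIMM17A therefore held 71.1%, 67.6% and 69.8% of the reads of the pair in the knockdown, against 40.5% and 46.3% in the controls. This share does not depend on how libraries are scaled, and its groups did not overlap. Shares of GRPEL2 with GRPEL1, TIMM8A with TIMM8B, TOMM40 with TOMM40L, TIMM23 with TIMM23B and PMPCB with PMPCA did not overlap either. Those of TOMM20 with TOMM20L and MTX2 with MTX1 did overlap. For the TIMM17A share, the smallest p that an exact permutation test could give, with 3 and 2 libraries, is 0.1. Which paralog passed depended on the scaling: with library size only TIMM17A passed (log2 fold change 0.90, edgeR adjusted p = 0.0298) and TIMM17B did not (-0.68, edgeR adjusted p = 0.0676). The TIMM17B call was also lost with GC-dependent offsets (edgeR adjusted p = 0.0535). TIMM17B overlaps PQBP1 on the opposite strand, whose log2 fold change was 0.23 (edgeR adjusted p = 0.424).

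TIMM50 had 116.0, 94.3 and 106.0 CPM in the knockdown, against 127.1 and 167.0 CPM in the controls (log2 fold change -0.48, edgeR adjusted p = 0.137). TIMM21 had 21.1, 20.5 and 25.3 CPM, against 87.2 and 29.02 CPM (log2 fold change -1.37, edgeR adjusted p = 0.0606). Its value rested largely on control 1, being -0.38 against control 2 and -1.97 against control 1.

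The import motor uses the mitochondrial Hsp70 (HSPA9), anchored by TIMM44. PAM16 is another motor subunit, and GRPEL1 or GRPEL2 serves as nucleotide exchange factor. GRPEL2 rose and GRPEL1 fell. GRPEL2 (chromosome 5, 149345414 to 149354583) had 23.6, 29.9 and 41.7 CPM in the knockdown, against 3.43 and 10.6 CPM in the controls, and rose 4.32-fold (log2 fold change 2.11, SE 0.49, edgeR adjusted p = 0.0295). GRPEL1 (chromosome 4, 7060053 to 7068073) had 191.0, 161.4 and 157.7 CPM in the knockdown and 835.1 and 312.4 CPM in the controls, and fell 3.37-fold (log2 fold change -1.75, SE 0.39, edgeR adjusted p = 0.0275). GRPEL2 reads were 11.02%, 15.6% and 20.9% of the reads of the pair in the knockdown, against 0.409% and 3.27% in the controls. The summed level of the pair was 214.7, 191.3 and 199.4 CPM, against 838.5 and 323.0 CPM. Against control 2 alone the log2 fold changes were 1.58 for GRPEL2 and -0.87 for GRPEL1, and against control 1 alone 3.19 and -2.30.

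TIMM44 was at 82.1 to 99.7 CPM in the knockdown and 52.2 to 80.2 CPM in the controls, and did not pass (log2 fold change 0.41, edgeR adjusted p = 0.257). PAM16 had 29.997, 33.5 and 32.8 CPM in the knockdown, against 5.14 and 25.7 CPM in the controls (log2 fold change 1.01, SE 0.56, edgeR adjusted p = 0.220). Its exons lie within the read-through gene CORO7-PAM16, which had 29.8, 32.5 and 31.6 CPM in the knockdown and 5.63 and 25.7 CPM in the controls, so reads of these genes cannot be told apart.

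The matrix processing peptidase cuts off presequences, with PMPCB as its catalytic and PMPCA as its regulatory subunit. PMPCB (chromosome 7, 103297426 to 103314686) was at 267.2, 260.4 and 319.3 CPM in the knockdown, against 155.8 and 143.1 CPM in the controls, and rose 1.89-fold (log2 fold change 0.92, SE 0.20, edgeR adjusted p = 0.0272). With GC-dependent offsets it missed the threshold (edgeR adjusted p = 0.0755), as did TOMM22 (0.0604). PMPCB overlaps DNAJC2 on the opposite strand, which had 584.1 to 707.7 CPM in the knockdown and 407.6 to 526.4 CPM in the controls (log2 fold change 0.47, edgeR adjusted p = 0.167), and shared reads cannot be told apart. PMPCA did not pass (log2 fold change 0.21, SE 0.23, edgeR adjusted p = 0.521), and its groups overlapped.

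In the MIA pathway, CHCHD4 oxidises cysteines of incoming proteins and GFER re-oxidises CHCHD4. GFER (chromosome 16, 1984149 to 1987749) was at 23.1, 14.5 and 18.7 CPM in the knockdown, against 68.6 and 35.9 CPM in the controls. It fell 2.76-fold (log2 fold change -1.47, SE 0.34, edgeR adjusted p = 0.0291). CHCHD4 was at 38.3, 34.0 and 36.1 CPM, against 24.5 and 36.9 CPM (log2 fold change 0.23, edgeR adjusted p = 0.516), and its groups overlapped. The insertase gene OXA1L was at 95.7, 88.8 and 96.8 CPM in the knockdown and 95.5 and 67.4 CPM in the controls (log2 fold change 0.21, edgeR adjusted p = 0.513). TIMMDC1, a complex I assembly factor despite its symbol, was at 171.2, 149.2 and 126.8 CPM, against 134.7 and 199.6 CPM (log2 fold change -0.17, edgeR adjusted p = 0.642).

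**Figure D3:**
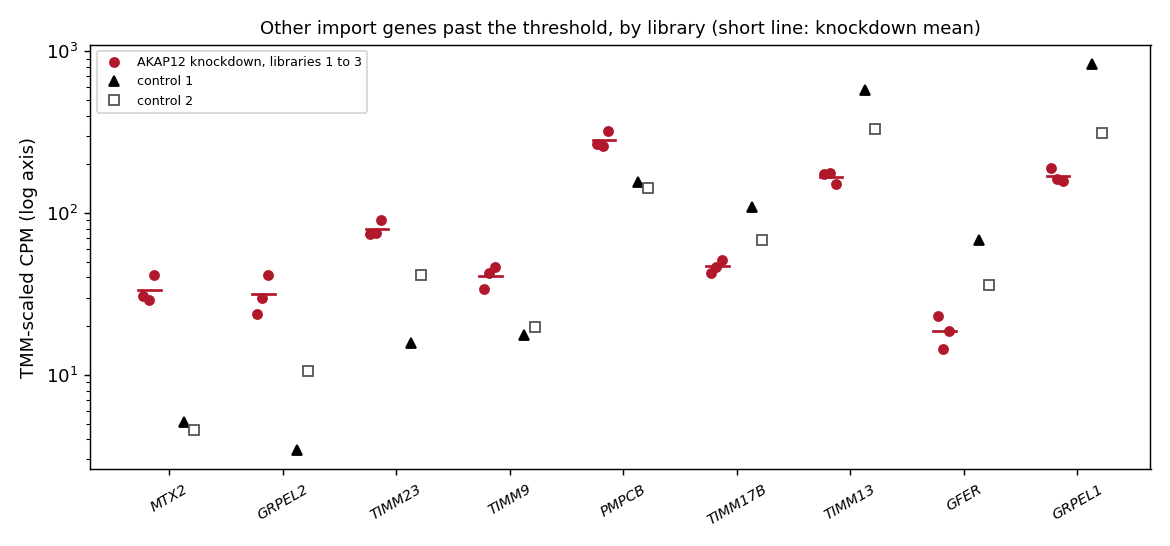
TMM-scaled CPM (log axis) of the 9 other import genes that passed the test, in each library, with knockdown libraries as red circles and their mean as a line, control 1 as triangles and control 2 as open squares. For each gene the 3 knockdown libraries lie on one side of both controls, which selection by the test favours. Control 1 lies much farther out than control 2 for GRPEL1, GRPEL2 and TIMM23.

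Distance from the knockdown libraries differed between the controls. Of 35 tested genes, 27 had a larger absolute log2 fold change against control 1 than against control 2, as did 10 of the 12 that passed. This was not counted over all tested genes. Control 1 also lay farther from the knockdown libraries over all genes (chi-square per degree of freedom 199 to 236, against 74.8 to 98.1 for control 2). The sign was the same against both controls for 29 genes, a share not counted over all tested genes. All 12 that passed were among them, but they were selected with these same controls, which favours a shared sign. It was opposite for CHCHD4, OXA1L, SAMM50, TOMM7, TIMMDC1 and TIMM8B. Against control 2 alone, log2 fold changes of the genes that rose ran from 0.73 (TOMM22) to 2.87 (MTX2), with TOMM20 at 1.06, TOMM5 at 1.16, TIMM23 at 0.96, TIMM9 at 1.04 and PMPCB at 0.98. Those of the genes that fell ran from -0.54 (TIMM17B) to -0.995 (TIMM13), with GFER at -0.93. Against control 1 alone these were 0.79 for TOMM22, 2.699 for MTX2, 1.65 for TOMM20, 2.26 for TOMM5, 2.35 for TIMM23, 1.21 for TIMM9, 0.85 for PMPCB, -1.23 for TIMM17B, -1.79 for TIMM13 and -1.86 for GFER. The median over the 35 genes was 0.21 against control 2 and 0.79 against control 1, against medians of 0.02 and 0.12 over all genes tested in those fits. For the 10 TOM genes the medians were 0.75 and 1.84. Against control 2 alone 13 import genes were called higher and 8 lower, against 20.3% and 17.0% of all genes, and against control 1 alone 22 and 6, against 30.5% and 27.6%.

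**Figure D4:**
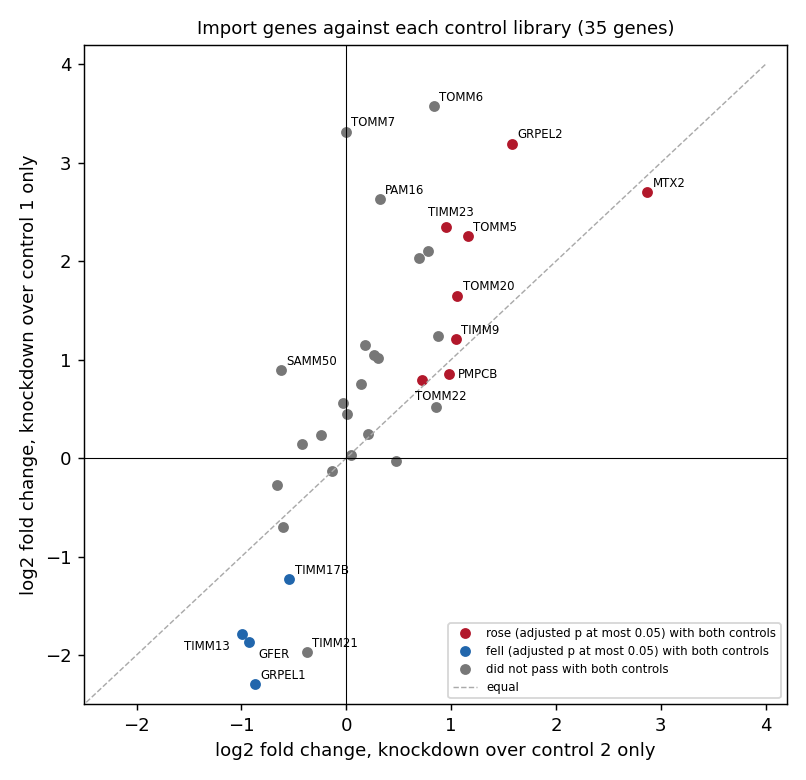
Log2 fold change of the 35 tested import genes against control 2 alone (horizontal) and control 1 alone (vertical), with the dashed line marking equal values. Genes that rose (red) and fell (blue), which were selected with both controls, keep their sign on both axes, and TOMM7 and SAMM50 do not.

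Transcript base composition moved with these changes. Genes that rose had transcripts with 39.0% to 48.1% GC (median 41.4%), and genes that fell had 46.3% to 63.6% (median 59.3%), with a median of 48.8% for import genes that did not pass. Over all tested genes the same medians were 45.5%, 55.6% and 47.8%. Across the 35 genes, which share the same 5 libraries, Spearman's rho of log2 fold change with GC content was -0.38, against -0.20 across 13726 genes. With exon length it was -0.11. Against control 2 alone rho with GC content was -0.48 for the import genes, and against control 1 alone -0.29. Across all genes with a GC value these were -0.28 and -0.11. Once each library was adjusted for a smooth trend on GC content, 7 import genes rose and 4 fell, against 9.12% and 13.5% of all genes. Of the 12 called without that adjustment, 9 passed, and TOMM40 (log2 fold change 1.28, edgeR adjusted p = 0.0389) and TIMM21 (-1.68, edgeR adjusted p = 0.0401) joined them. That adjustment moved the median over all tested genes to -0.12.

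**Figure D5:**
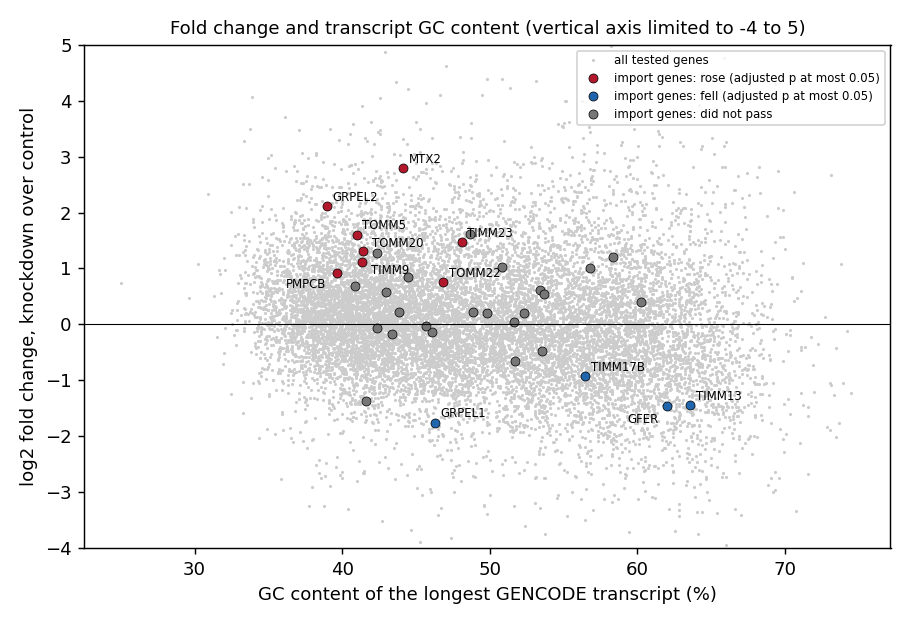
Log2 fold change (knockdown over control) against GC content of the longest GENCODE transcript for all tested genes (grey dots, vertical axis limited to -4 to 5) and for the import genes. Genes that fell, other than GRPEL1, lie at higher GC content than the genes that rose.

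The promoter matches can be set beside the calls. ETS-type letters were in 6 of the 7 promoters of genes that rose, in 1 of the 3 of genes that fell and in 8 of the 22 of genes that did not pass. NRF1-type letters were in 2 of 7, 0 of 3 and 6 of 22. TOMM5, GRPEL1 and TIMM8B had no promoter window, and MTX1, which was not tested, is in none of these classes. Shares among all genes that rose, fell or did not pass were not counted. With so few promoters in each class these counts are descriptions.

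Some counts cannot be assigned to 1 gene with certainty. Of the 36 genes, 13 share bases with another annotated gene and 11 have pseudogenes that carry their name, among them 4 and 5 of the 12 that passed. TOMM22 has 6 named pseudogenes, TOMM20 has 4, and GRPEL2 and TIMM9 have 3 each, and reads from near-identical copies may be missing or misplaced.

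The authors' deposited table of the comparison lists all 36 genes. Its direction is not stated, and the sign of its fold changes matched the edgeR values (Pearson's r of 0.999 across genes). By the adjusted p of the authors' deposited table (at most 0.05), 11 import genes were higher and 5 lower, against 12.6% and 12.7% of its 16104 genes (25.3% in all). All 12 genes called here were also called in the authors' deposited table with the same sign, and the others called there were TOMM40, TOMM70A, TOMM6 and TIMM21. That table is of the same comparison in the same series, so this agreement is not independent.

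Among 57 other genes of import, processing, chaperoning and inner membrane organisation, 10 rose (17.5%) and 3 fell (5.26%), with a median log2 fold change of 0.33. These shares are to be read against 11.2% and 11.4% of all tested genes. The 6 with the smallest p were COX17, CMC2, STIP1, UBQLN1, MIPEP and CHCHD3. COX17, a copper chaperone imported by the MIA pathway, was at 111.7, 119.5 and 118.9 CPM in the knockdown, against 29.6 and 22.7 CPM in the controls (log2 fold change 2.16, SE 0.22, edgeR adjusted p = 0.0124). CMC2, another twin-cysteine protein, rose by 1.62 on the log2 scale, the intermediate peptidase gene MIPEP by 1.72, the MICOS subunit gene CHCHD3 by 1.39 and UBQLN1, a cytosolic chaperone of membrane proteins, by 1.99.

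STIP1, which links Hsp70 with Hsp90, was at 302.5, 255.4 and 217.7 CPM in the knockdown and 1086 and 698 CPM in the controls (log2 fold change -1.79, SE 0.27, edgeR adjusted p = 0.0158). The other partner genes that fell, named after their values were seen, were HSP90AB1 (log2 fold change -1.001, lost with library size only at an edgeR adjusted p of 0.0533) and the matrix protease gene LONP1 (-0.94). DNAJC19, a J protein of the import motor, was also named after its value was seen. It was at 38.9, 49.6 and 60.4 CPM, against 1.47 and 10.8 CPM (log2 fold change 2.91, SE 0.66, edgeR adjusted p = 0.0281). Its log2 fold change was 2.20 against control 2 and 5.05 against control 1. DNAJC15, in the same group of partner genes, missed the threshold (log2 fold change 0.86, edgeR adjusted p = 0.0507). The motor Hsp70 gene HSPA9 did not pass (log2 fold change -0.26, edgeR adjusted p = 0.348).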

How the data were processed

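Reads were aligned to hg38 with STAR 2.7, per the submitters' processing notes, and the authors' deposited counts per gene come from featureCounts 1.6.2 over exons, per the file headers, with a read over several genes added to each of them and no strand option. Trimming and UMI handling were not given in the sources used here. The authors' deposited table holds a log2 fold change with its standard error, a mean signal, p-values and a test statistic (a score). The submitters' processing notes list DESeq2 1.22.

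The filter was filterByExpr (minimum count 10), after which 14536 genes were scaled with TMM and tested with edgeR 4.0.16 (R 4.3.3, quasi-likelihood, two-sided, no covariates), with Benjamini-Hochberg adjustment over all tested genes and a threshold of 0.05. SE is the absolute log2 fold change over the square root of F. The procedure was tested on simulated counts that had the same spread in both groups. The real controls differed from each other far more than the knockdown libraries did. That test therefore cannot show how the procedure behaves on these libraries. The labels do not say that libraries came from separate cultures, so p-values measure the spread between these libraries, which may be technical. All pairs of libraries differed by more than sampling noise. Control 1 had the fewest reads, and a count of 0 (3 counts as the limit) allows up to 0.735 TMM-scaled CPM there and 0.307 to 0.402 elsewhere, for counting error only.

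Values in every library are given for members past the threshold and for the member with the smallest p of each role. Of the partner genes, the 6 with the smallest p are named. The members and lists were chosen with earlier results of these data known. Promoters are those of the RefSeq table. GC content is that of the longest GENCODE release 29 transcript, with a value for 94.4% of tested genes. Alternatives were DESeq2 1.42.0, limma-voom (limma 3.58.1), RLE scaling, library size only, removal of TERT and short RNA genes, no filter, a floor of 5 CPM in 2 libraries, a block for the replicate number and each library left out. GC-dependent offsets (smooth with span 0.2) were chosen after seeing the data.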

Additional observations from a re-analysis of the deposited data

How the results depend on the processing

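Of the 12 import genes that passed, 8 (GFER, GRPEL1, GRPEL2, MTX2, TOMM20, TOMM5, TIMM13 and TIMM9) also passed with DESeq2, limma-voom, RLE scaling, library size only, TERT and short RNA genes removed, both other filters and GC-dependent offsets. No import gene passed once a knockdown library was left out, with smallest edgeR adjusted p values of 0.0842 to 0.125. In those fits 14 to 16 import genes had an unadjusted edgeR p under 0.05, against 19 in the full fit. Over all genes 3774 to 4109 of 14215 to 14324 did, against 5890 of 14536 in the full fit. Fits with a single control assume that it varies as the knockdown libraries do, and are not comparable. Over all left-out libraries, calls ran from 0 to 8811 for all genes (3282 in the full fit), 0 to 22 for import genes higher, 0 to 8 for import genes lower, 0 to 31 and 0 to 15 for partner genes higher and lower. The median log2 fold change of import genes ran from 0.21 to 0.79, and AKAP12 from -0.52 to -1.42.

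Library size only gave a median of 0.72 for import genes, GC-dependent offsets 0.39, against 0.55. The median over all genes was 0.23 and -0.12 in these fits, against 0.04. All genes split into 1668 higher and 982 lower with library size only, against 1624 and 1658. DESeq2 called 16 partner genes higher, against 10. AKAP12 passed with TERT and short RNA genes removed (-1.04, adjusted p = 0.0481), no filter (-0.996, 0.0310), the stricter filter (-1.06, 0.0481), limma-voom (-0.98, 0.0453), DESeq2 (-1.09, 0.0110) and GC-dependent offsets (-1.21, 0.0409).

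Deviations from the group means of same-numbered libraries correlated at r of -0.05 and -0.08. With 2 controls, the deviations of 1 control mirror those of the other, so this check cannot exclude pairing. The labels do not state pairs, and the numbers were not taken as pairs. With the replicate number as a block 210 genes, 1 import gene higher (MTX2) and 0 lower passed, and 3 partner genes higher and 0 lower.

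Some import genes turned sign, none of them past the threshold with all libraries. With library size only these were SAMM50 (0.082), TIMMDC1 (0.016), TIMM10B (0.076) and TIMM8B (0.16), with the block SAMM50 (0.15), with limma-voom SAMM50 (0.058), with RLE TIMM10 (-0.0033), with DESeq2 TIMM10 (-0.0025), with GC-dependent offsets TIMM10 (-0.088) and TIMM23B (-0.036), and with no filter TIMM8B (0.0041). With a library left out, CHCHD4 ran from -0.028 to 0.56, OXA1L from -0.031 to 0.48, SAMM50 from -0.62 to 0.89, TOMM7 from -0.0061 to 3.32, TIMMDC1 from -0.42 to 0.14, TIMM10 from -0.11 to 0.12 and TIMM8B from -0.24 to 0.24. The cause was not tested.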
